A study of Danio rerio with 12 samples.

Results

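Endothelial genes were followed in whole zebrafish (Danio rerio) hearts: 6 genes that mark lymphatic or scavenger endothelium (lyve1a, lyve1b, stab1, stab2, prox1a and flt4), the lymphatic growth factor gene vegfc, and 3 genes used as markers of endothelium in general (kdrl, cdh5 and fli1a). They are the rows with these 10 symbols among the 24782 genes of the deposited table, and all 10 were present. Hearts were taken 7 days after cryoinjury of the ventricle or after sham surgery, in which the ventricle was exposed and left alone. Adults aged 6 to 12 months were used, either yap +/+ (wild type) or yap -/- (mutant) in genotype. yap1 encodes Yap, a transcriptional co-activator restrained by the Hippo kinases. Which mutant allele they carried was not stated in the labels. Polyadenylated RNA of each of the 4 combinations of genotype and surgery was sequenced in 3 libraries, called here by group and replicate number. Nothing in the labels tells whether replicates are separate animals or pools of hearts. The p-values therefore reflect only how far these libraries vary.

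lyve1a was selected on its FPKM, which had been seen to be higher in mutants. The other 9 genes were chosen by their known roles, but with earlier results of these data known. Mutant against wild type is therefore described with differences and standard errors (SE) and carries no test. The response to injury was tested.

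Lymphatic vessels form from veins when endothelial cells switch on Prox1 and answer to the ligand Vegfc through its receptor tyrosine kinase Flt4 (Vegfr3). The hyaluronan receptor Lyve1 and the stabilins Stab1 and Stab2 are found on lymphatic and scavenger endothelial cells. The stabilins are large receptors that clear waste from the blood. In mammals LYVE1 and stabilin-1 are also found on macrophages. Kdrl is a zebrafish Vegfr2, Cdh5 is the cadherin of endothelial junctions, and Fli1a is an ETS transcription factor of endothelium that blood cells share. The heart holds endothelium as coronary vessels, as lymphatics and as endocardium, the sheet that lines its chambers. Cardiac muscle cells also make Prox1 in mammals and fish, so that in whole hearts prox1a is no measure of lymphatic vessels alone.

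Several libraries stood apart. Levels are in FPKM, the fragments of a gene relative to its transcript length and to the mapped total. Transcripts of ribosomal proteins took 39.8% of the FPKM sum of mutant sham 1 and 32.7% of that of mutant cryoinjury 2, while the remaining 10 libraries gave them 13.6% to 20.9%. Summed FPKM ran from 668670 to 823107. yap1 lay between 10.1 and 14.4 FPKM in the 6 mutant libraries and between 18.8 and 29.8 FPKM in the 6 wild-type ones. The 10 cardiomyocyte markers summed to 40589 to 81817 FPKM, as whole heart requires. The 16 macrophage markers summed to 182 FPKM in the lowest and 2118 FPKM in the highest mutant sham library.

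Because FPKM is scaled by length, levels can be ranked across genes. The means over all 12 libraries formed an upper and a lower set. fli1a (NCBI gene 30619) stood at 31.4 ± 6.74 FPKM (SD), kdrl (796537) at 26.8 ± 7.72 FPKM, prox1a (30679) at 23.6 ± 5.88 FPKM and cdh5 (445471) at 14.7 ± 5.52 FPKM. Neighbours within this upper set differed by less than 2 of their SDs, and the first 3 by about 1 SD or less. The lower set held lyve1a (560618) at 3.58 ± 3.09 FPKM, stab1 (570626) at 3.42 ± 1.13 FPKM and vegfc (403049) at 2.77 ± 1.42 FPKM. Below them came lyve1b (564249) at 1.37 ± 0.966 FPKM, flt4 (30121) at 1.28 ± 0.565 FPKM and stab2 (565194) at 1.03 ± 0.604 FPKM. Neighbours in the lower set differed by less than 1 SD, apart from vegfc and lyve1b, whose means lay about 1 SD of vegfc apart. The lowest value of any of the upper 4 genes, 7.51 FPKM for cdh5, was above the highest of every lower gene except lyve1a, which reached 9.37 FPKM.

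The Lyve1 genes had the widest ranges of the 10 genes. lyve1a ran from 0.52 to 9.37 FPKM, an 18-fold range, and lyve1b from 0.23 to 3.94 FPKM, a 17.1-fold range. The other 8 genes spanned 2.1-fold (fli1a) to 5.89-fold (stab2).

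**Figure D1:**
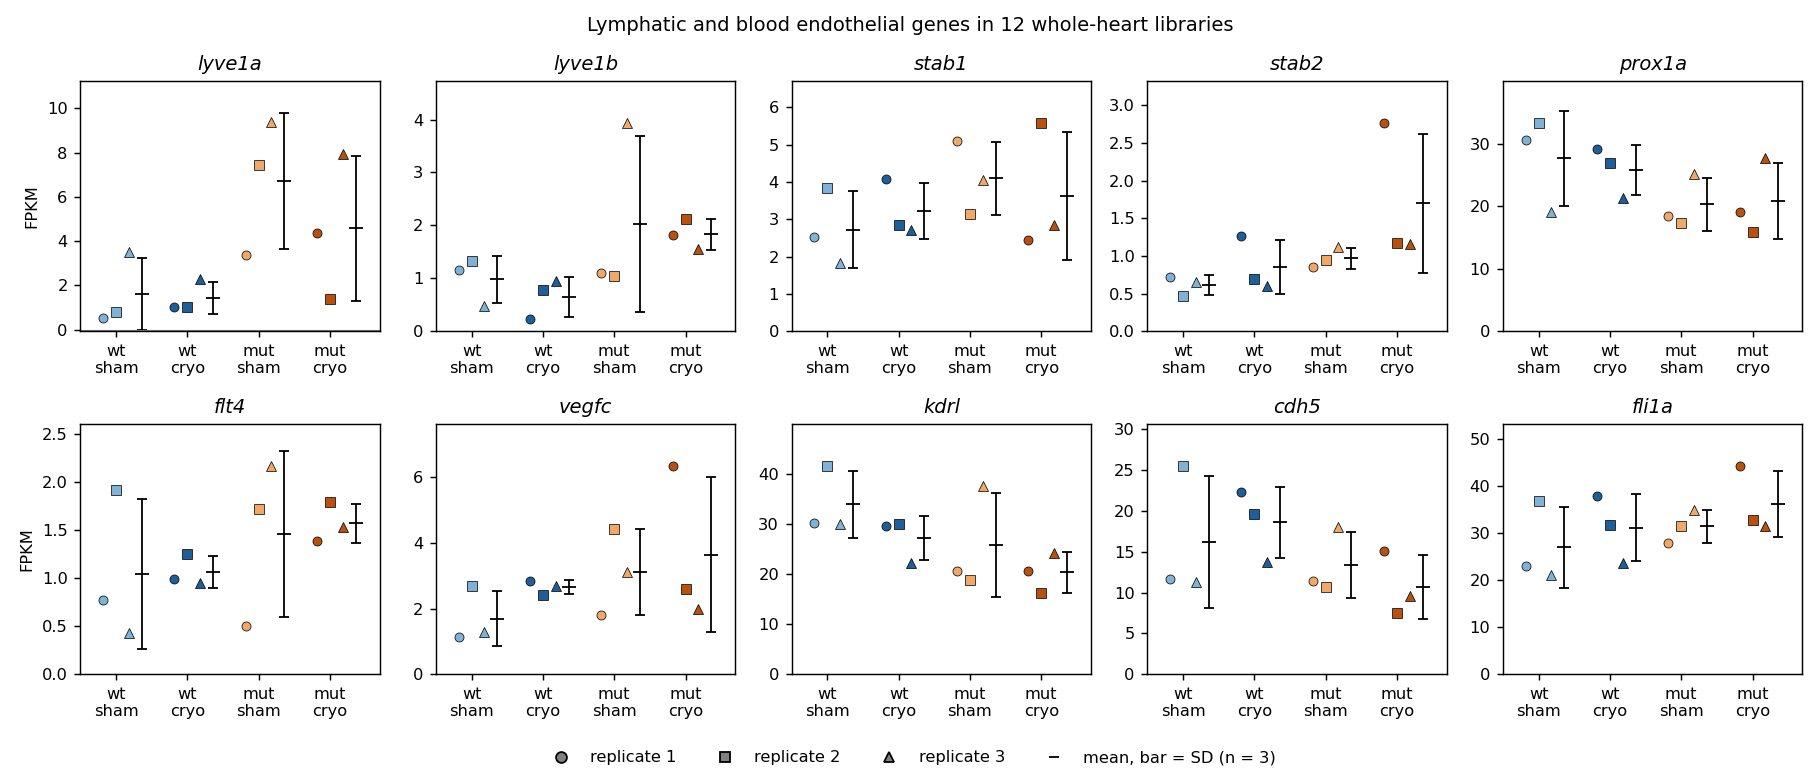
Level of each gene in FPKM (vertical axes, each on its own scale) in the 4 groups of 3 libraries (wt, wild type; mut, mutant; cryo, cryoinjury). Symbols mark the replicate number, and the bar beside each group is the mean with its SD. lyve1a is at 3.35 FPKM or more in 5 of 6 mutant libraries, while kdrl, prox1a, cdh5 and fli1a lie above the other 6 genes in every library.

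lyve1a, the hyaluronan receptor gene that led to this list, was low in wild-type hearts, with 0.52, 0.80 and 3.49 FPKM in sham 1 to 3 and 1.03, 1.00 and 2.28 FPKM in cryoinjury 1 to 3. Mutant hearts had 3.35, 7.42 and 9.37 FPKM in sham 1 to 3 and 4.38, 1.40 and 7.96 FPKM in cryoinjury 1 to 3. All mutant libraries but cryoinjury 2 lay above 5 of the 6 wild-type ones, and the groups overlapped through wild-type sham 3 and mutant cryoinjury 2. The wild-type mean was 1.52 ± 1.14 FPKM and the mutant mean 5.65 ± 3.07 FPKM (SD, n = 6 each). On the log2(FPKM + 1) scale, which understates the change of low genes, the mutant difference was 1.65 ± 0.53 (SE) in sham and 1.04 ± 0.53 in cryoinjured hearts. Leaving out wild-type sham 3 gave a sham difference of 2.13, and leaving out mutant sham 3 gave 1.39. The cryoinjury difference was 1.55 without mutant cryoinjury 2 and 0.60 without mutant cryoinjury 3. With mutant sham 1 and mutant cryoinjury 2, the libraries rich in ribosomal protein mRNA, both left out, the differences were 2.02 and 1.55.

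Its paralog lyve1b was sparser. Wild-type sham 1 to 3 had 1.15, 1.32 and 0.48 FPKM, and wild-type cryoinjury 1 to 3 had 0.23, 0.78 and 0.94 FPKM. Mutant sham 1 to 3 had 1.1, 1.04 and 3.94 FPKM, and mutant cryoinjury 1 to 3 had 1.82, 2.13 and 1.55 FPKM. After cryoinjury every mutant library was above every wild-type library, while in sham hearts the groups overlapped and mutant sham 3 alone was high. The mutant difference was 0.51 ± 0.34 (log2, SE) in sham hearts, 0.09 without mutant sham 3 and 0.81 with a pseudocount of 0.1. It was 0.80 ± 0.34 in cryoinjured hearts, 0.60 without wild-type cryoinjury 1 and 1.52 with that pseudocount. The ratio of lyve1a to lyve1b was between 0.452 and 7.27 over the 12 libraries, so the paralogs did not keep a fixed proportion. How the authors' counting treated reads that fit both paralogs is unknown, so this ratio is uncertain.

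The stabilin genes had narrower ranges than the Lyve1 genes. stab1 was at 2.73 ± 1.03 FPKM in wild-type sham, 3.22 ± 0.757 in wild-type cryoinjured, 4.09 ± 0.976 in mutant sham and 3.62 ± 1.71 FPKM in mutant cryoinjured hearts (SD, n = 3 each), and all 4 groups overlapped. Mutants differed from wild type by 0.47 ± 0.29 (log2, SE) in sham and by 0.09 ± 0.29 in cryoinjured hearts, the latter being -0.20 without mutant cryoinjury 2. Its 2 highest libraries, at 5.59 and 5.09 FPKM, were mutant cryoinjury 2 and mutant sham 1, the libraries rich in ribosomal protein mRNA. The part of that in its values was not tested.

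stab2 had 0.72, 0.47 and 0.66 FPKM in wild-type sham 1 to 3 and 1.26, 0.69 and 0.60 FPKM in wild-type cryoinjury 1 to 3. Mutants had 0.85, 0.94 and 1.12 FPKM in sham 1 to 3 and 2.77, 1.17 and 1.16 FPKM in cryoinjury 1 to 3. Mutant sham was above wild-type sham in every library, and mutant cryoinjury above mutant sham in every library, the latter with the nearest pair at 1.16 and 1.12 FPKM. The mutant difference was 0.29 ± 0.25 (log2, SE) in sham and 0.51 ± 0.25 in cryoinjured hearts, where it was 0.24 without mutant cryoinjury 1. With a mean of 1.03 FPKM stab2 only just passed the level of 1 FPKM needed for testing. Its means were 0.62 and 0.85 FPKM in wild-type sham and cryoinjured hearts and 0.97 and 1.70 FPKM in mutants. It thus passed only through the mutant cryoinjured group.

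Of the genes of the Vegfc pathway, the ligand gene vegfc had 1.13, 2.67 and 1.29 FPKM in wild-type sham 1 to 3 and 2.83, 2.42 and 2.69 FPKM in wild-type cryoinjury 1 to 3. Mutant sham 1 to 3 had 1.80, 4.40 and 3.10 FPKM, and mutant cryoinjury 1 to 3 had 6.33, 2.59 and 2.00 FPKM. The wild-type cryoinjured libraries lay close together, whereas mutant cryoinjury 1 was far above its group, and the groups overlapped. The mutant difference was 0.60 ± 0.35 (log2, SE) in sham and 0.24 ± 0.35 in cryoinjured hearts, and the latter was -0.15 without mutant cryoinjury 1.

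flt4, which encodes the Vegfc receptor, had 0.77, 1.92 and 0.43 FPKM in wild-type sham 1 to 3, 0.99, 1.25 and 0.95 FPKM in wild-type cryoinjury 1 to 3, 0.50, 1.72 and 2.16 FPKM in mutant sham 1 to 3, and 1.39, 1.79 and 1.53 FPKM in mutant cryoinjury 1 to 3. The sham groups were scattered over the whole range, and the cryoinjured groups were tight and did not overlap, with mutants higher. The mutant difference was 0.27 ± 0.31 (log2, SE) in sham and 0.32 ± 0.31 in cryoinjured hearts. With single libraries left out the sham value ran from 0.045 (without wild-type sham 3) to 0.59 (without mutant sham 1). prox1a, the transcription factor gene, was at 27.6 ± 7.61 FPKM in wild-type sham and 25.8 ± 4.02 in wild-type cryoinjured hearts, and at 20.3 ± 4.29 and 20.8 ± 6.12 FPKM in mutants (SD, n = 3 each), with differences of -0.41 ± 0.27 and -0.32 ± 0.27 (log2, SE). Its groups overlapped.

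Among the genes of endothelium in general, kdrl had 30.3, 41.6 and 29.9 FPKM in wild-type sham 1 to 3, and 29.7, 30.0 and 22.2 FPKM in wild-type cryoinjury 1 to 3. Mutants had 20.7, 18.9 and 37.7 FPKM in sham 1 to 3 and 20.6, 16.2 and 24.2 FPKM in cryoinjury 1 to 3. All mutant libraries except mutant sham 3 and mutant cryoinjury 3 were below every wild-type library. The mutant difference was -0.44 ± 0.27 (log2, SE) in sham and -0.41 ± 0.27 in cryoinjured hearts. Under the alternative settings tried the sham difference ran from -0.73 to 0.16, so that its sign was not fixed, and the cryoinjury difference from -0.55 to -0.27.

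The junction gene cdh5 had 11.7, 25.5 and 11.3 FPKM in wild-type sham 1 to 3, 22.3, 19.6 and 13.8 FPKM in wild-type cryoinjury 1 to 3, 11.5, 10.7 and 18 FPKM in mutant sham 1 to 3, and 15, 7.51 and 9.53 FPKM in mutant cryoinjury 1 to 3. Wild-type sham 2 stood far above the other sham libraries, and the cryoinjured groups overlapped only through mutant cryoinjury 1. Its mutant difference was -0.19 ± 0.35 (log2, SE) in sham and -0.77 ± 0.35 in cryoinjured hearts. The latter was -0.56 without mutant cryoinjury 2, the lowest library for cdh5 and one rich in ribosomal protein mRNA. The sham value was 0.17 without wild-type sham 2, and 0.25 when mutant sham 3 alone was kept in its group, so its sign was not fixed.

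fli1a had its difference on the other side. It was at 27.0 ± 8.55 FPKM in wild-type sham, 31.2 ± 7.10 in wild-type cryoinjured, 31.5 ± 3.57 in mutant sham and 36.2 ± 7.07 FPKM in mutant cryoinjured hearts (SD, n = 3 each). The mutant difference was 0.25 ± 0.25 (log2, SE) in sham and 0.22 ± 0.25 in cryoinjured hearts, and the groups overlapped. It ran from 0.10 (without wild-type sham 3) to 0.49 (without wild-type sham 2) in sham and from 0.042 (without wild-type cryoinjury 3) to 0.37 (without wild-type cryoinjury 1) in cryoinjured hearts.

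Set side by side, 7 of the 10 genes had higher and 3 (prox1a, kdrl and cdh5) lower means on the log2 scale in mutants, in sham and in cryoinjured hearts alike. With single libraries left out the sign turned for cdh5 in sham and for stab1 and vegfc in cryoinjured hearts. For kdrl and cdh5 in sham it turned when mutant sham 1 and mutant sham 2 were dropped together (0.16 and 0.25). That left mutant sham 3 alone in its group. The median of the 10 differences was 0.28 in sham and 0.23 in cryoinjured hearts, against 0.07 and -0.11 for all 13969 genes tested. Groups did not overlap for 1 of the 10 genes in sham hearts (stab2, higher in mutants, among 10.2% of all tested genes and 7.01% in that direction) and for 2 in cryoinjured hearts (lyve1b and flt4, both higher, among 15.7% and 3.06%). Nothing is read from these counts, since the list was drawn up with this comparison known. In bulk tissue, fewer cells of a type and less RNA per cell cannot be told apart.

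**Figure D2:**
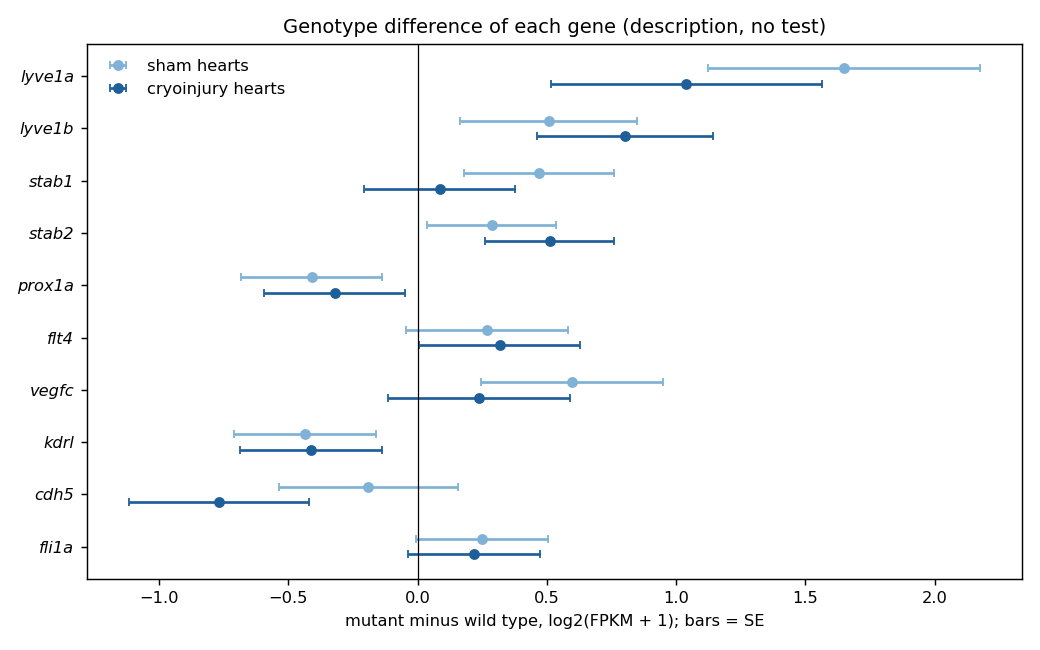
Mutant minus wild type for each gene on the log2(FPKM + 1) scale (horizontal axis), in sham and in cryoinjured hearts, with the SE as bars. lyve1a lies furthest to the right, at 1.65 and 1.04, and prox1a, kdrl and cdh5 lie left of 0 in both.

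The comparison of cryoinjured with sham hearts asked whether these genes respond to the injury. In limma, with p-values adjusted after Benjamini and Hochberg for 13969 genes, none of the 10 passed in wild type, in mutants or over both genotypes, and 0 of them reached an unadjusted p under 0.05 in any of the 3. Of all tested genes, 0% passed in wild type (1211 genes, 8.67%, at an unadjusted p under 0.05), 0% in mutants (435 genes, 3.11%) and 0.0644% over both genotypes (9 genes passed, and 1355, 9.70%, were under the unadjusted level). Cryoinjured and sham libraries of wild type did not overlap for 27.7% of all tested genes and for 0 of these 10. In mutants they did not overlap for 4.1% of tested genes and for 1 of the 10, stab2, which was higher after injury as 2.05% of tested genes were. Because stab2 passed the level for testing only through the mutant cryoinjured group, nothing is read from its injury values.

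Over both genotypes, with 6 libraries a side, the values were small. kdrl differed by -0.29 ± 0.19 (log2, SE), with a 95% interval from -0.71 to 0.14 and an adjusted p of 0.673 in limma. stab2 differed by 0.29 ± 0.18, from -0.09 to 0.68 (adjusted p 0.627), vegfc by 0.30 ± 0.25, from -0.25 to 0.84 (0.744), and fli1a by 0.20 ± 0.18, from -0.19 to 0.60 (0.760). The stab2 value is listed only to complete the set, since nothing is read from it. The other 6 lay between -0.27 (lyve1a) and 0.10 (flt4), at adjusted p of 0.854 to 0.994. These intervals reach as low as -1.08 (log2) for lyve1a, the most variable gene, and no higher than 0.84 for any of the 10. Against them stands a median of all tested genes of 0.10 and a median of the 10 genes of -0.01.

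By genotype the estimates were wider. In wild type they ran from -0.30 ± 0.27 for kdrl to 0.48 ± 0.35 for vegfc (limma adjusted p 0.684 to 0.986), 7 of 10 above 0, where the median of all genes was 0.19. In mutants they ran from -0.57 ± 0.53 for lyve1a to 0.41 ± 0.25 for stab2 (adjusted p 1.00 throughout), 6 of 10 above 0, with a median of all genes of 0.01. Of all tested genes 74.3% were above 0 in wild type and 52.5% in mutants. Nothing is read from the stab2 value, for the reason given above. The wild-type and mutant estimates of the 10 genes feed the value over both genotypes and are no separate evidence for it.

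**Figure D3:**
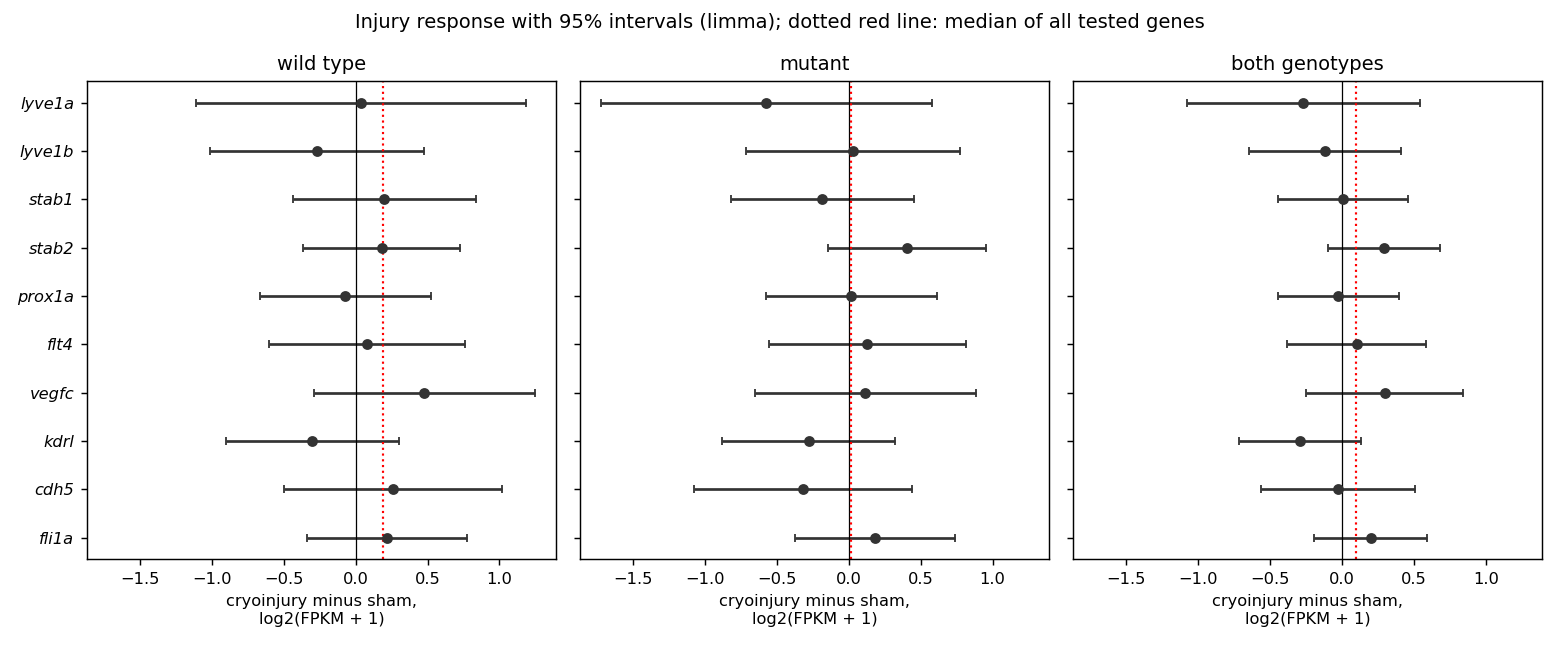
Cryoinjury minus sham for each gene on the log2(FPKM + 1) scale with its 95% interval from limma, in wild type, in mutants and over both genotypes. All 30 intervals include 0, and the dotted red line marks the median of all tested genes, at 0.19, 0.01 and 0.10.

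The difference between the injury responses of mutants and wild type was also not called for any of the 10 (limma, adjusted p 1.00 throughout, 0 of 10 and 271 of 13969 genes, 1.94%, at an unadjusted p under 0.05; 0% of all genes passed). It ran from -0.61 ± 0.74 (log2, SE) for lyve1a, a value that shares the libraries in which lyve1a was chosen, and -0.58 ± 0.49 for cdh5, to 0.30 ± 0.48 for lyve1b. cdh5 averaged 16.2 and 18.6 FPKM in sham and cryoinjured wild-type hearts and 13.4 and 10.7 FPKM in mutants. With SEs of this size the design does not resolve a difference of the size seen.

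How closely the 3 general endothelial genes varied together depended on the pair. kdrl and cdh5 varied together (Pearson's r 0.749 over 12 libraries, 0.773 for deviations from group means), as did cdh5 and fli1a within groups (0.922) but less across them (0.428). kdrl and fli1a had an r of 0.0112 over all libraries and 0.578 within groups. Over all 12 libraries the highest r of the 45 pairs was 0.810, between prox1a and kdrl, and the median was 0.178. These are descriptions without a test, and genes measured in the same library share its depth and composition.

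vegfc varied with fli1a (0.776) and with stab2 (0.671), and flt4 with fli1a (0.673), lyve1b (0.659) and vegfc (0.584). Mutant cryoinjury 1 was the highest library for both vegfc and stab2 (6.33 and 2.77 FPKM), and by ranks (Spearman's rho) that pair had only 0.427. lyve1a had no r above 0.463, its value with lyve1b, and that was -0.0118 within groups. Within groups lyve1a and the stabilin gene stab1 had an r of -0.758, with lyve1a lowest where stab1 was highest among cryoinjured mutants (1.40 and 5.59 FPKM in mutant cryoinjury 2) and among sham mutants (3.35 and 5.09 FPKM in mutant sham 1). These are the libraries rich in ribosomal protein mRNA, and without them the r was -0.487 over 10 libraries, a value added after seeing the data.

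**Figure D4:**
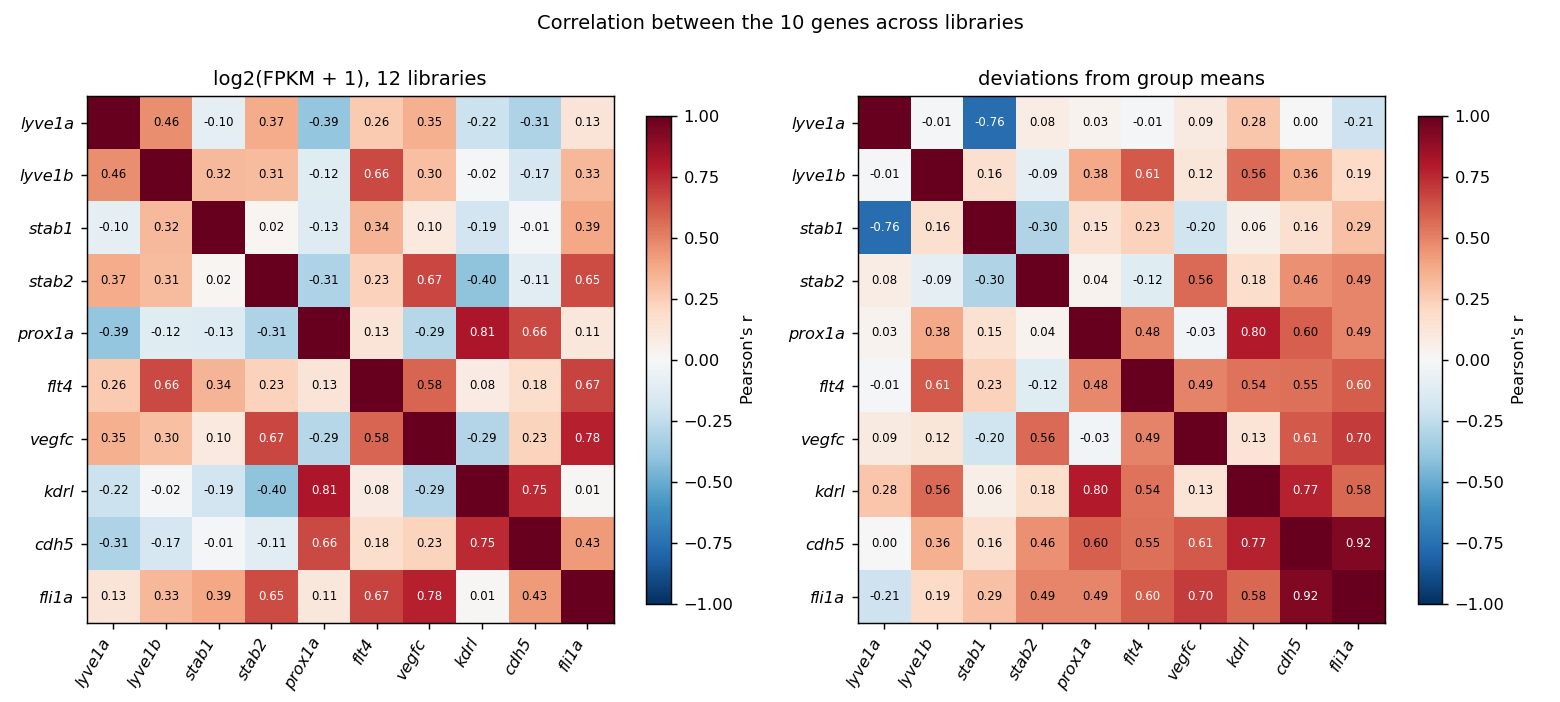
Pearson's r between the 10 genes over the 12 libraries, from log2(FPKM + 1) on the left and from its deviations from group means on the right. kdrl, cdh5 and prox1a form a positive block in both, fli1a joins it within groups, and lyve1a stands apart from it.

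The proportion of fli1a to kdrl, singled out after its values were seen, differed between groups more than either gene. In wild-type sham 1 to 3 the ratio of FPKM was 0.761, 0.885 and 0.706, and in wild-type cryoinjury 1 to 3 it was 1.28, 1.06 and 1.07. The wild-type groups did not overlap, as was so for 27.7% of single genes. In mutants the ratio was 1.35, 1.67 and 0.928 in sham 1 to 3 and 2.15, 2.02 and 1.30 in cryoinjury 1 to 3, where the groups overlapped. Every mutant library was above every wild-type library of the same surgery. Of single genes 10.2% did not overlap between genotypes in sham hearts (7.01% with mutants higher) and 15.7% in cryoinjured hearts (3.06%). No such share was computed for ratios. This is a measured proportion, chosen for its pattern and without a test, and fli1a is also made by blood cells. The macrophage markers summed to 238 to 436 FPKM across the wild-type sham libraries, 648 to 1140 across the cryoinjured ones, 182 to 2118 in mutant sham and 784 to 1353 FPKM in mutant cryoinjured hearts, with none of the 16 at 0 throughout a group, and their part in the ratio was not tested. The ratio of cdh5 to kdrl was 0.459 ± 0.133 and 0.675 ± 0.0685 in wild-type sham and cryoinjured hearts and 0.534 ± 0.0475 and 0.529 ± 0.177 in mutants (SD, n = 3 each).

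**Figure D5:**
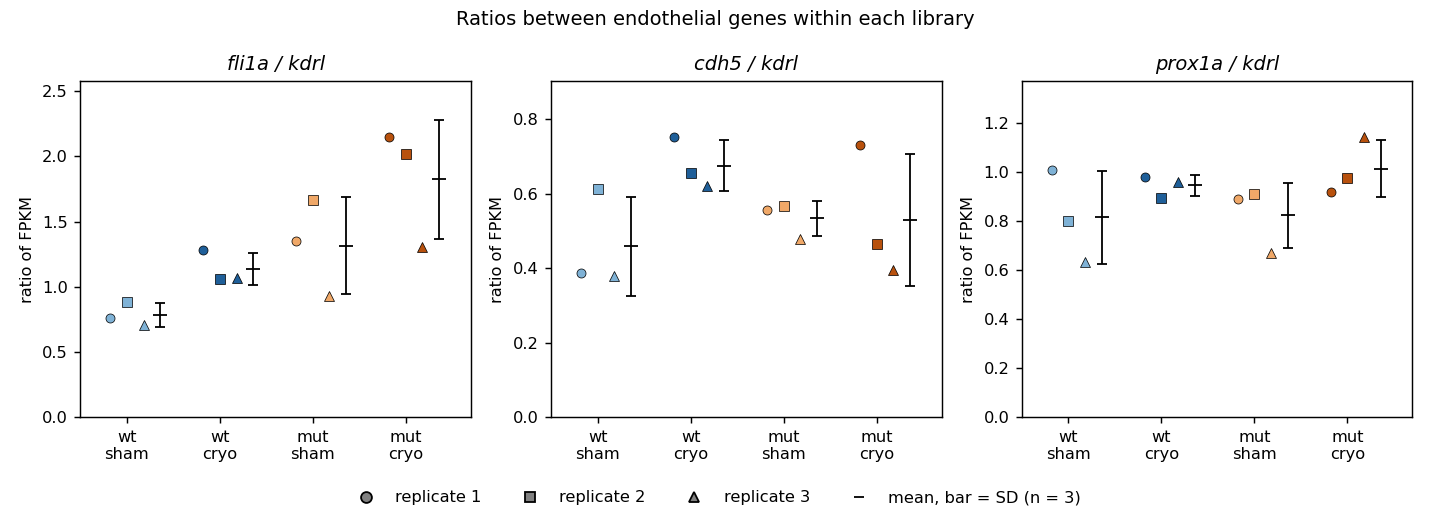
Ratio of FPKM of fli1a, cdh5 and prox1a to kdrl in each library by group, with the group mean and SD beside the points. The fli1a ratio is 0.706 to 0.885 in wild-type sham and 1.30 to 2.15 in mutant cryoinjured hearts, whereas the prox1a ratio stays between 0.635 and 1.14 in every library.

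Set against the mean log2 level of kdrl, cdh5 and fli1a in the same library, lyve1a lay at -3.43 ± 0.82 in wild type and -1.86 ± 0.65 in mutants (log2, SD, n = 6 each). The genotypes overlapped. Wild-type sham 3 and wild-type cryoinjury 3 were at -2.18 and -2.64. Mutant sham 1, mutant cryoinjury 1 and mutant cryoinjury 2 were at -2.19, -2.22 and -2.83. The mean of the 3 genes was itself 4.35 to 5.13 in wild type and 4.09 to 4.90 in mutants. lyve1b lay at -3.83 ± 0.47 and -2.95 ± 0.35, and stab2 at -3.88 ± 0.37 and -3.25 ± 0.37. Both passed the level for testing only through mutant libraries, so nothing is read from these differences. stab1 lay at -2.69 ± 0.17 and -2.19 ± 0.56. vegfc lay at -3.03 ± 0.30 and -2.39 ± 0.50, and flt4 at -3.65 ± 0.19 and -3.14 ± 0.40. prox1a, at 0.11 ± 0.24 and -0.03 ± 0.28, differed between the genotypes by less than its SD.

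Of 6373 named genes with a mean of 5 FPKM or more, those most like lyve1a over the 12 libraries were sh3glb1b (r 0.834), ptges3a (0.828), mfng (0.778), heatr3 (0.773) and med19b (0.771). Within groups their r was 0.772, 0.747, 0.539, 0.383 and 0.55. lyve1a was chosen for being higher in mutants, so this ranking favours genes that share that difference. The values are the highest of 6373 and were not tested. mfng, a Fringe enzyme gene that modifies Notch receptors, was at 2.86 ± 2.07 and 6.25 ± 0.959 FPKM in wild-type sham and cryoinjured hearts and at 18.7 ± 7.84 and 14.7 ± 6.17 FPKM in mutants (SD, n = 3 each). Those most like kdrl were swap70a (0.937), bsg (0.934), mterf2 (0.923), stard7 (0.919) and tnnc1a (0.918), the last of which encodes troponin C of heart muscle. tnnc1a averaged 6701 ± 1195 and 4209 ± 1729 FPKM in wild-type sham and cryoinjured hearts and 4190 ± 4098 and 3394 ± 2583 FPKM in mutants (SD, n = 3 each). The kdrl means had the same order of groups (33.9, 27.3, 25.7 and 20.3 FPKM). The wild-type cryoinjured mean and both mutant means of tnnc1a differed by less than their SDs, so its order is not resolved.

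Further genes of these pathways, none of them among the 10, were taken from 6 lists. In none of them did any gene pass limma over both genotypes, in either genotype or for the difference of the responses. The counts of genes higher and lower stand beside 68.0% of all tested genes higher after injury over both genotypes. Of the Vegf and lymphangiogenic ligands, 11 of 17 were tested, 6 higher and 5 lower after injury over both genotypes (median 0.07). pgfa, a placental growth factor gene, was at 0.413 ± 0.304 and 1.28 ± 0.580 FPKM in wild-type sham and cryoinjured hearts. In mutants it was at 0.430 ± 0.255 and 2.03 ± 1.41 FPKM. Its difference over both genotypes was 0.84 ± 0.24 (log2, SE, limma adjusted p 0.283). pgfa passed the level for testing only through its cryoinjured groups, so nothing is read from this difference. The chemokine gene cxcl12a was at 12.5 ± 5.27 and 25.8 ± 4.18 FPKM in wild type and at 19.6 ± 8.18 and 33.3 ± 12.5 FPKM in mutants (0.91 ± 0.28, adjusted p 0.317). angpt1, the Tie2 ligand gene, differed by -0.58 ± 0.32 (0.593). ccbe1, whose product helps activate Vegfc, differed by 0.33 ± 0.23 (0.680).

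The receptors of these ligands numbered 10 tested of 12, with 4 higher and 6 lower (median -0.02). cxcr4b, a Cxcl12 receptor gene that leukocytes also express, differed by 0.86 ± 0.42 (log2, SE, limma adjusted p 0.547) and the co-receptor gene nrp1a by 0.32 ± 0.19 (0.624). nrp2b, whose family binds Vegfc, and tie1 differed by 0.13 ± 0.21 and -0.07 ± 0.17 (0.880 and 0.924). Of the lymphatic factors and surface genes, 10 of 15 were tested, 6 higher and 4 lower (median 0.06). The forkhead factor gene foxc1a was at 17.0 ± 2.72 and 9.61 ± 2.56 FPKM in wild-type sham and cryoinjured hearts and at 17.5 ± 4.70 and 13.0 ± 6.03 FPKM in mutants (-0.63 ± 0.23, adjusted p 0.401). mafba and mafbb, Maf factors of lymphatic endothelium and macrophages, differed by 0.46 ± 0.25 and 0.44 ± 0.35, and the integrin gene itga9 by 0.26 ± 0.21 (0.573 to 0.728).

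Of the other general endothelial genes, 23 of 25 were tested, 15 higher and 8 lower after injury (median 0.05, against 0.10 for all tested genes). The tight junction gene cldn5b differed by 0.85 ± 0.39 (log2, SE), plvapb, a gene of endothelial diaphragms, by 0.67 ± 0.31, the guidance receptor gene robo4 by 0.45 ± 0.21 and the Tgf-beta co-receptor gene eng by 0.46 ± 0.26 (limma adjusted p 0.519 to 0.588). Endocardial and flow-responsive genes had 15 tested of 17, 10 higher and 5 lower (median 0.16). cgnl1, a junction gene, was at 30.3 ± 3.74 and 38.5 ± 4.79 FPKM in wild-type sham and cryoinjured hearts and at 35.4 ± 2.65 and 46.1 ± 8.13 FPKM in mutants (0.35 ± 0.14, adjusted p 0.450). The matrix link protein gene hapln1b differed by 0.49 ± 0.22, gata5 by -0.25 ± 0.16 and the endocardial factor gene nfatc1 by -0.31 ± 0.22 (0.503 to 0.686).

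Of the arterial and venous genes 12 of 13 were tested, with 4 higher and 8 lower (median -0.05). The ephrin gene efnb2a, an arterial marker, was at 1.76 ± 0.797 and 5.4 ± 0.970 FPKM in wild-type sham and cryoinjured hearts and at 3.34 ± 2.47 and 3.33 ± 2.69 FPKM in mutants (0.62 ± 0.34 log2, SE, limma adjusted p 0.587). Its receptor gene ephb4b differed by 0.31 ± 0.19, the Notch target gene hey2 by -0.46 ± 0.28 and the Notch ligand gene dlc by -0.30 ± 0.22 (0.628 to 0.695).

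Markers of other cells that the hearts could hold were read in the same libraries. The 15 tested macrophage markers had a median difference after injury of 1.23 (log2) over both genotypes and the 11 markers of fibroblasts and epicardium 1.17, against -0.01 for the 10 endothelial genes. None of these markers passed limma, with havcr1, a Tim-family receptor gene, at 1.40 ± 0.29 (log2, SE, adjusted p 0.141) and the epicardial factor gene wt1b at 1.37 ± 0.25 (0.0777). Of the 8 tested mural and smooth muscle markers none passed (median 0.16), with tagln at 1.37 ± 0.27 (0.126). Of 10 cardiomyocyte markers none passed (median -0.06), nor did any of 7 erythrocyte (0.57), 4 liver (-1.15) and 4 skin and gill markers (0.48). Of 6 skeletal muscle markers 2 passed limma, the parvalbumin genes pvalb1 and pvalb2, at 2.19 ± 0.32 and 2.48 ± 0.36 (adjusted p 0.0343 each). pvalb1 averaged 0.73 and 1.09 FPKM in wild-type and mutant sham hearts and 5.54 and 12.4 FPKM in cryoinjured ones. It passed the level for testing only through the cryoinjured groups, so nothing is read from its call. Liver markers, read because scavenger endothelium also lines the liver's vessels in mammals, summed to 23.6 to 55.5 FPKM across the wild-type sham libraries, 54.7 to 112 across the cryoinjured ones, 21.2 to 88.8 in mutant sham and 30.4 to 146 FPKM in mutant cryoinjured hearts. serpina1 was at 0 in all 3 wild-type cryoinjured libraries. By the mean log2 level of the 8 liver markers wild-type sham 3 (2.30), mutant sham 3 (2.1) and mutant sham 2 (1.93) stood highest. These are the highest library for lyve1a in wild type and the highest and the second highest in sham mutants. Among cryoinjured mutants this did not hold. Mutant cryoinjury 3 and 1, with lyve1a at 7.96 and 4.38 FPKM, had mean log2 liver levels of only 1.01 and 1.26. By the summed FPKM of the liver markers the order was another. Mutant cryoinjury 2 (146 FPKM) and wild-type cryoinjury 1 (112 FPKM) were highest, where lyve1a was at 1.40 and 1.03 FPKM. Much of that sum was tfa, which averaged 85.1 FPKM in wild-type and 90.5 FPKM in mutant cryoinjured hearts. After injury over both genotypes tfa differed by 1.58 ± 0.51 (log2, SE). The other 3 tested liver markers were lower: fabp10a by -1.77 ± 0.64, apoa2 by -1.29 ± 0.48 and apoa1b by -1.01 ± 0.54. These 3 passed the level for testing only through their sham groups. Nothing is therefore read from their differences or from the liver median of -1.15. With much of it from tfa, the sum is no readout of the list as a whole. The part of liver tissue in the lyve1a values was not tested.

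The same markers also differed by genotype, here as descriptions of mutant minus wild type on the log2 scale. Macrophage markers were higher in mutants for 14 of 15 genes in sham hearts (median 0.85) and 13 of 15 in cryoinjured hearts (0.38). Those of fibroblasts and epicardium were higher for 11 of 11 in sham (0.67) and 3 of 11 in cryoinjured hearts (-0.11). The mutant sham libraries were not uniformly high. Fibroblast and epicardium markers summed to 178, 1416 and 667 FPKM in mutant sham 1 to 3, against 203 to 461 FPKM in wild-type sham. Macrophage markers summed to 182, 2118 and 633 FPKM, against 238 to 436 FPKM. Cardiomyocyte markers were lower for 7 of 10 in both, with medians of -0.44 and -0.16. Skin and gill markers had medians of 0.89 and 0.85, liver markers 0.67 and 0.31, erythrocyte markers -0.35 and -0.53, mural markers 0.07 and -0.13, and skeletal muscle markers 0.09 and 0.84. The median of all tested genes was 0.07 in sham and -0.11 in cryoinjured hearts, and 58.7% and 35.1% of them were higher in mutants. The part of these cells in the mutant differences of the 10 endothelial genes was not tested.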

How the data were processed

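Heart RNA was taken up in Trizol, checked on a BioAnalyzer and made into low-input poly-A libraries for the BGISEQ-500, per the labels' protocols. The tools HISAT and Bowtie2 and the build GRCz11 are named per the submitters' processing notes. Their versions and the quantifying program are unstated there. What the authors deposited is FPKM, 1 value per gene and library. FPKM corrects for length and library total, so a gene's value drops when abundant transcripts take up more of the library. The table has 14 columns of values. Names tied 13 of them to samples, and 1 was left out. A pair of columns, 2 in all, belonged to mutant sham 3. Their median absolute log2 difference was 0.0165 against 0.212 to 0.673 between replicates, and their mean was counted as 1 sample.

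Fragments per library are not stated. Relative depth was estimated from genes at 0.3 to 1.5 FPKM both in a library and in wild-type sham 1. It was taken as the inverse of the most frequent ratio of their FPKM to that of wild-type sham 1. This gave a depth of 0.812 to 1.20 times that of wild-type sham 1 in the 11 libraries with 1 column. The 2 columns of mutant sham 3 gave 0.663 and 0.694, the lowest estimates, and no single depth was set for their mean. The number of fragments behind a value is unknown, and values near 1 FPKM are the least precise.

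Values were tested as log2(FPKM + 1) with limma 3.58.1 in R 4.3.3 (a mean per group over all 12 samples, intensity trend, Benjamini-Hochberg adjustment over 13969 genes with a mean of 1 FPKM or more, threshold 0.05). All 10 genes passed that level, which is set on the mean over all samples. Of them stab2 did so only through its mutant cryoinjured group and lyve1b only through its mutant groups. The fit was tested on simulated data. The members and gene lists were chosen with earlier results of these data known. Beside the 10, the text names up to 4 genes of each list with the lowest p for injury over both genotypes, and the 5 genes most correlated with lyve1a and with kdrl. List names were matched to the file's symbols or, for older names, to RefSeq names of GRCz12tu, from which no coordinates were used because the builds differ. Of the listed names, emcn was not matched. Protein and promoter sequences were not used here.

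Alternatives were no filter, a filter at 5 FPKM, a pseudocount of 0.1, median-of-ratios rescaling, quantile normalization, array weights, the replicate number as a block, only the groups compared, either column of mutant sham 3, each library left out, and 2 pairs of libraries left out. The labels do not say that equal replicate numbers pair libraries.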

Additional observations from a re-analysis of the deposited data

How the results depend on the processing

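No endothelial gene was called in any injury comparison under any alternative that tested it: 0 of 916 values, at a lowest adjusted p of 0.124. The filter at 5 FPKM leaves only fli1a, kdrl, prox1a and cdh5, and the fit of only the groups compared gives values in wild type and in mutants alone. Signs of values near 0 in the main fit did not hold: 94 values in 22 of 40 results changed sign. None of these results was larger than 0.30 (log2) in the main fit, but some reversed values lay far from 0. lyve1b in mutants went from 0.03 to -0.60 with array weights and to -0.81 without mutant sham 1 and mutant sham 2. The array weights of mutant sham 1 to 3 were 0.21, 0.36 and 2.82. With median-of-ratios rescaling, which moved the median of all genes in wild type from 0.19 to -0.02, the injury values were -0.12, -0.037 and -0.040 in wild type for lyve1a, flt4 and fli1a, -0.011 and -0.038 in mutants for lyve1b and prox1a, -0.12 over both genotypes for stab1, and 0.17 for the difference of responses of fli1a. With quantile normalization they were -0.20, -0.066, -0.032 and -0.13 in wild type for lyve1a, stab1, stab2 and flt4, -0.060 in mutants for lyve1b, -0.15 and -0.037 over both for stab1 and flt4, and 0.12 for the difference for fli1a. With array weights they were -0.60, -0.21, -0.20 and -0.020 in mutants for lyve1b, prox1a, flt4 and vegfc, -0.078 over both for flt4, and -0.28, -0.080, -0.25 and -0.41 for the difference for lyve1b, prox1a, flt4 and kdrl. Without mutant sham 1 and mutant cryoinjury 2 they were -0.24, -0.25 and -0.0049 in mutants for lyve1b, flt4 and vegfc, -0.066, 0.030, -0.087 and 0.029 over both for stab1, prox1a, flt4 and cdh5, and -0.33 for the difference for flt4. Without mutant sham 1 and mutant sham 2 they were -0.81, -0.30 and -0.30 in mutants for lyve1b, prox1a and flt4, -0.11 over both for flt4, and -0.54, -0.23, -0.38 and -0.57 for the difference for lyve1b, prox1a, flt4 and kdrl. The cause was not tested.

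With each library left out in turn the injury value in wild type ran from -0.26 to 0.52 for lyve1a, from -0.31 to 0.079 for prox1a and from -0.14 to 0.37 for flt4. In mutants it ran from -0.19 to 0.45 for lyve1b, from -0.20 to 0.19 for prox1a, from -0.19 to 0.34 for flt4, from -0.27 to 0.37 for vegfc and from -0.46 to 0.022 for kdrl. Over both genotypes it ran from -0.23 to 0.091 for lyve1b, from -0.13 to 0.11 for stab1, from -0.15 to 0.059 for prox1a, from -0.057 to 0.25 for flt4 and from -0.16 to 0.15 for cdh5. The difference of responses ran from -0.042 to 0.38 for stab2, from -0.13 to 0.33 for prox1a, from -0.27 to 0.27 for flt4, from -0.16 to 0.32 for kdrl and from -0.27 to 0.12 for fli1a.

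Counts over all genes were unstable. The 9 genes called over both genotypes became 3 with the replicate block, 3 with the filter at 5 FPKM, 6 without a filter, 19 with either rescaling, 13 and 29 with the pairs of libraries left out, 290 with array weights, and 1 to 432 with single libraries left out. In wild type 0 became 409 with array weights, 44 without mutant sham 1 and 2, 8 with only the groups compared, and 0 to 20 with single libraries left out. In mutants it became at most 3. Libraries of equal replicate number had correlations of deviations of -0.205 to 0.326, with 3 of 18 pairs over 0.1, so the numbers were not taken to pair libraries, and 0 of the 10 genes were called with the replicate block. With 3 libraries a group and unknown depth, values near 1 FPKM limit what can be seen in lyve1b, flt4 and stab2.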
